A study of Mus musculus with 2 samples.

Results

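The cells described here are dermal fibroblasts (dFBs) picked by the genes Crabp1, Dkk2 and Prdm1 and proposed as peri-follicular papillary fibroblasts, the fibroblasts of the upper dermis that lie close to the hair follicles. They were chosen by a rule on UMIs (unique molecular identifiers, 1 for each captured transcript molecule). A barcode needed 200 to 6000 genes and at most 10% mitochondrial UMIs, at least 1 UMI of the fibroblast gene Pdgfra, and none of Ptprc, Pecam1 or Dpp4. It also needed at least 2 UMIs of Crabp1, Dkk2 and Prdm1 together, fewer than 3 UMIs of the follicle genes Wif1, Hhip, Rspo3 and Gldn together, and fewer than 2 UMIs of the sheath genes Lrrc15 and Col11a1 together. The rule found 577 members among 19578 filtered barcodes. Within the 10247 Pdgfra cells, those with Pdgfra and without Ptprc and Pecam1, the other cells serve as the comparison below and are called other Pdgfra cells.

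The study measured single-cell transcriptomes of dorsal skin in an MC903-induced mouse model of atopic dermatitis (AD). Both groups were female C57BL/6J mice, 7 weeks old at the start, whose backs had been depilated with Nair. Ctrl mice received ethanol on the skin each day, and AD mice received 4.5 nmol MC903 (calcipotriol, a vitamin D analogue) in ethanol per application, with skin taken on day 10. Each group is 1 library, and the number of mice behind a library is not given in the sources used here, so no difference between the groups could be tested and all intervals below cover counting error only. The Ctrl library held 12598 barcodes and 125184653 UMIs, and the AD library held 8778 barcodes and 76106062 UMIs.

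Papillary fibroblasts form the loose upper dermis, exchange Wnt and other signals with the epidermis and give rise to the fibroblasts of the hair follicle during development. Crabp1 encodes a carrier of retinoic acid, Dkk2 a secreted modulator of Wnt signalling and Prdm1 the transcriptional repressor Blimp1. The further markers of the label were Trps1, a transcription factor of skin appendages, and Ednrb, the endothelin receptor type B.

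Ctrl held 152 members and AD held 425. Members were 2.84% of the Ctrl Pdgfra cells (95% exact binomial interval 2.41% to 3.32%) and 8.68% of the AD Pdgfra cells (7.91% to 9.51%). With each cell thinned to 2000 UMIs before the rule was applied, the shares were 2.44% and 7.70%. The higher AD share rested on the follicle and sheath limits. Without them, 811 Ctrl cells (15.15%, 14.2% to 16.1%) and 684 AD cells (13.98%, 13.02% to 14.98%) met the rest of the rule. Of 1366 Ctrl Pdgfra cells with at least 2 UMIs of the rule genes, 832 were over the follicle limit, 706 over the sheath limit and 555 carried Dpp4, and 11.1% remained as members. Of 781 such AD cells, 257 were over the follicle limit, 94 over the sheath limit and 97 carried Dpp4, and 54.4% remained.

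Many Ctrl members had the fewest UMIs that the rule allows. There, 65 members (42.8%) had exactly 2 UMIs of the rule genes, and 166 cells with 1 UMI met every other condition. In AD, 82 members (19.3%) had exactly 2 UMIs, and 211 cells with 1 UMI stood just outside. The median sum of the rule genes was 3 UMIs in Ctrl and 4 UMIs in AD, and the highest was 37 and 32 UMIs. Dkk2 was the gene that most members carried, with at least 1 UMI in 116 Ctrl members and 360 AD members. Crabp1 was found in 41 and 67 members, and Prdm1 in 35 and 219 members. No Ctrl member and 19 AD members had UMIs of all 3 genes.

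Members had a median of 7810.5 UMIs and 2823.5 genes in Ctrl and of 5155 UMIs and 2153 genes in AD. Their summed UMIs came to 1399091 in Ctrl and 2817532 in AD, and levels below are UMIs of a gene scaled to a sum of 1000000 (CPM). The libraries shared 35 barcodes, and 1 member had a barcode that the other library also held.

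In Ctrl, Ednrb did not bear out the label and Trps1 gave mixed values. In AD the members stood above the pooled other Pdgfra cells for both genes, but not above all the cells that the limits removed. Ednrb, which the rule did not use, stood at 6.43 CPM in the Ctrl members (95% exact Poisson interval 2.94 to 12.2), from 9 UMIs in 8 cells. In the AD members it stood at 276 CPM (257 to 296), from 778 UMIs in 137 cells. The other Pdgfra cells were at 96.1 CPM in the Ctrl library and 27.7 CPM in the AD library, so the Ctrl members were below and the AD members above them. In Ctrl, Ednrb lay instead in the cells that the limits removed, at 387 CPM in cells over the sheath limit and 194 CPM in cells over the follicle limit. In AD, cells over the sheath limit had 318 CPM. The share of members with an Ednrb UMI was 5.26% in Ctrl and 32.2% in AD, and 2.04% and 25.8% after thinning to 2000 UMIs. T cells, which should lack the transcript, had thinned shares of 1.02% in Ctrl (median 3275.5 UMIs per cell before thinning) and 0.412% in AD (median 6219 UMIs), so the Ctrl members were close to this background.

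Trps1 was at 244 CPM in the Ctrl members and 275 CPM in the AD members. The other Pdgfra cells had 286 CPM in the Ctrl and 69.3 CPM in the AD library. Its summed level in the members was thus above that of the pooled other cells in AD and, with all members, not in Ctrl (log2 ratio to the others -0.23). The Ctrl direction turned without the keratin-bearing members, those rich in keratinocyte transcripts and described below. The Ctrl members then had 314 CPM of Trps1, a log2 ratio of 0.14 to the other Ctrl Pdgfra cells. Only the members were limited in this way, and 20.3% of the other Ctrl Pdgfra cells were keratin-bearing. Cells over the follicle limit had more, at 804 CPM in the Ctrl library and 411 CPM in the AD library, and the AD cells over the sheath limit had 364 CPM. By share of cells the members were above the pooled other cells in both libraries. In Ctrl, 76.3% of the Ctrl members and 47.6% of the other Ctrl Pdgfra cells had a Trps1 UMI, or 43.5% and 26.8% after thinning, beside 15.99% of Ctrl T cells. Of the rule genes, Crabp1 was at 62.2 CPM in the Ctrl members and 89.4 CPM in the other Ctrl Pdgfra cells, and at 305 CPM in the Ctrl cells over the follicle limit. In AD it was at 46.5 CPM in the members and 19.9 CPM in the others, with 183 CPM in the AD cells over the follicle limit. Dkk2 was at 329.5 CPM in the Ctrl members against 70.7 CPM in the others, and Prdm1 at 80.1 CPM against 28.5 CPM. In AD these genes were also above the others, at 626 against 71.6 CPM and 215 against 21.9 CPM. Levels of rule genes are set partly by the selection, so they were not used to judge the label. With Ednrb near background in Ctrl and Trps1 mixed, the members are called by their rule here. The label of peri-follicular papillary fibroblasts is not used for the Ctrl cells. In AD these genes do not settle it either. Cyp26b1 led the list of reticular and adventitial genes described below, at 1979 CPM in the AD members against 699 CPM in the others. That list summed to 4999 CPM in the AD members and 5541 CPM in the others. The papillary list, also described below, summed to 3362.5 CPM and 1951 CPM.

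**Figure D1:**
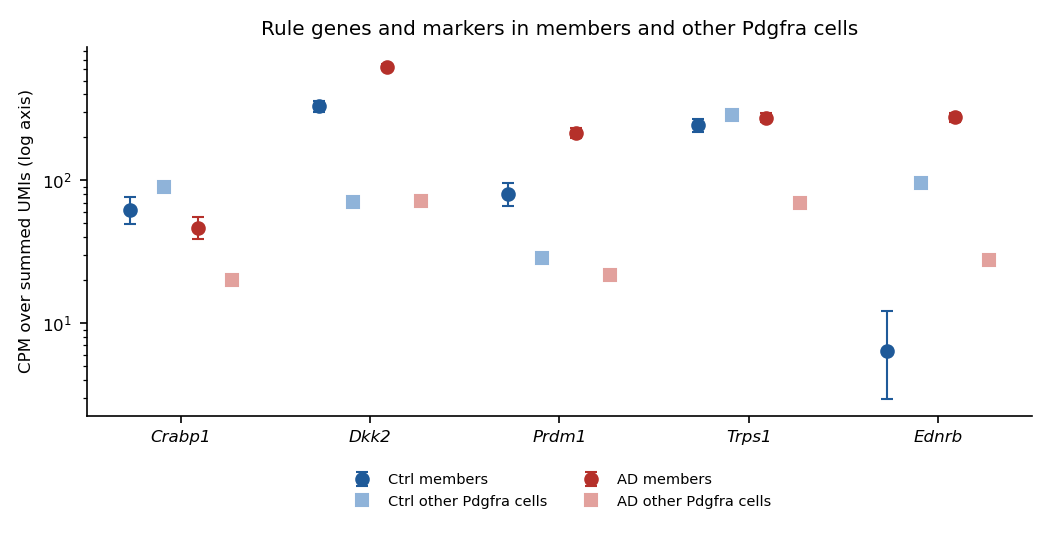
Levels of the 3 rule genes and the markers Trps1 and Ednrb, in CPM over summed UMIs on a log axis, in members (circles, with 95% exact Poisson intervals) and other Pdgfra cells (squares, drawn without intervals) of the Ctrl (blue) and AD (red) libraries. Ednrb sits at 6.43 CPM in the Ctrl members and 276 CPM in the AD members.

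Keratinocyte transcripts moved with the group. In Ctrl, 25 members (16.4%, exact binomial interval 10.9% to 23.3%) had 5 or more UMIs of a list of 19 keratinocyte genes, and in AD 5 members did (1.18%, 0.383% to 2.72%). The 25 Ctrl cells held 32.6% of the Ctrl member UMIs and 98.7% of their keratinocyte-list UMIs, with 3949 in a single cell. The summed level of the list was 12740 CPM in the Ctrl members and 555 CPM in the AD members, with Krtdap the most abundant gene in Ctrl (3083 CPM) and Lgals7 in AD (201 CPM). No gene of the list was at 0 in either library. Among the other Pdgfra cells, 20.3% in Ctrl and 1.79% in AD passed the same number of UMIs. Values without these cells, from 127 Ctrl and 420 AD members, are therefore given below for lists and genes, and the part of these cells in each remaining result was not tested.

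Members were not uniform. They were split by the first rule gene with at least 2 UMIs, in the order Prdm1, Crabp1, Dkk2, and the rest reached 2 UMIs only as a sum. In AD this gave 136 Prdm1 members, 30 Crabp1 members, 232 Dkk2 members and 27 of the sum alone, and in Ctrl 21, 22, 95 and 14. Of the 21 Ctrl Prdm1 members, 10 were keratin-bearing, against 7 of the 95 Ctrl Dkk2 members.

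Ednrb in AD lay mostly in the Prdm1 members, at 786 CPM, with a UMI in 88 of the 136 cells. It was at 33.0 CPM in the Crabp1 members and 70.0 CPM in the Dkk2 members, where 39 of the 232 cells had a UMI. Klhl33, a Kelch-family gene, was at 289 CPM in the Prdm1 members, 62.7 CPM in the Crabp1 members and 123 CPM in the Dkk2 members, and highest in the 27 members of the sum alone, at 403 CPM. The AD Prdm1 members were thus the cells that carried most of the endothelin receptor signal. Saa3, Cyp24a1 and Ccl2 were placed differently. Saa3, an acute phase serum amyloid gene, was at 4.97 CPM in the AD Prdm1 members, 1479 CPM in the Crabp1 members and 307 CPM in the Dkk2 members. Cyp24a1, which encodes the enzyme that degrades active vitamin D, was at 28.6 CPM in the Prdm1 members, 211 CPM in the Crabp1 members and 169 CPM in the Dkk2 members. The chemokine gene Ccl2 followed the same order, at 548 CPM, 1261 CPM and 911 CPM. Cxcl1, which encodes a neutrophil attractant, was nearer to level, at 597 CPM, 746 CPM and 594 CPM. The 27 members of the sum alone had no Saa3 UMI, 42.5 CPM of Cyp24a1, 318 CPM of Ccl2 and 74.3 CPM of Cxcl1. The Saa3 values rest on few cells, 8 of the 30 Crabp1 members and 16 of the 232 Dkk2 members.

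Gas1, a hedgehog co-receptor, and Cyp26b1, which encodes an enzyme that degrades retinoic acid, were abundant in the Dkk2 members of both libraries. Gas1 was at 1413 CPM in the Ctrl Dkk2 members and 1141 CPM in the AD Dkk2 members, and at 176 CPM and 489 CPM in the Prdm1 members. Cyp26b1 was at 2271 CPM in the Ctrl and 2275 CPM in the AD Dkk2 members, against 628 CPM in the Ctrl and 1569 CPM in the AD Prdm1 members. Without the keratin-bearing members, the Ctrl Prdm1 members, then 11 cells, stood at 2328 CPM of Cyp26b1 and 795 CPM of Gas1, and the Ctrl Dkk2 members at 2276.5 CPM and 1441.5 CPM. Cyp26b1 therefore did not separate these members in Ctrl. These subdivisions were made from the rule genes, hold few cells in Ctrl and carry no test.

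**Figure D2:**
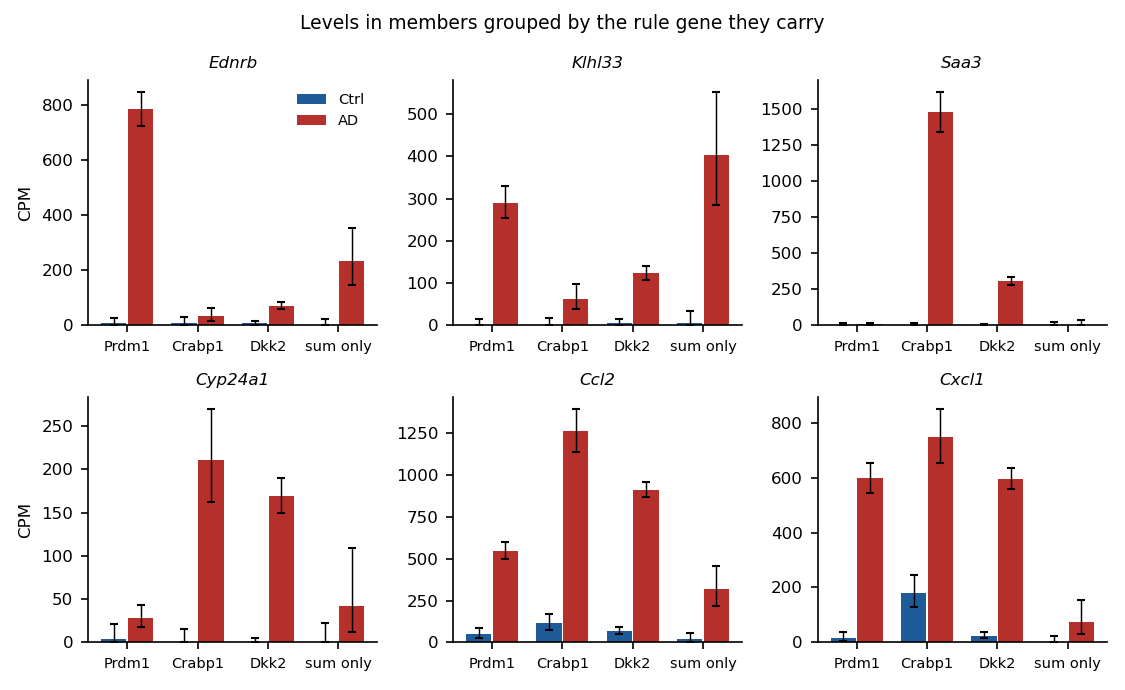
CPM of Ednrb, Klhl33, Saa3, Cyp24a1, Ccl2 and Cxcl1 (bars, with 95% exact Poisson intervals, linear axes from 0) in Ctrl (blue) and AD (red) members grouped by rule gene. Ednrb is highest in the AD Prdm1 members at 786 CPM, and Saa3 in the AD Crabp1 members at 1479 CPM.

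The genes that stood over the other Pdgfra cells in both libraries describe how members differed from that pool, which holds the cells that the rule removes. Because the members were picked from these same cells, the values are a description. With all members, keratinocyte genes such as Krtdap and Lgals7 led, so the order without the keratin-bearing members was used. It was chosen after those values were seen, and the levels given are those of all members. For this order, keratin-bearing cells were left out of the members only and stayed among the other Pdgfra cells. Fam180a led, at 114 CPM in the Ctrl members against 37.9 CPM in the others and 84.8 CPM in the AD members against 17.2 CPM. S100a4, a calcium-binding protein gene used as a fibroblast marker, was at 1537 CPM against 598 CPM in Ctrl and 693 CPM against 167 CPM in AD. Pappa, a protease that releases IGF from its binding proteins, was at 162 CPM against 57.4 CPM and 192 CPM against 52.3 CPM. Cyp26b1 was at 1556 CPM against 494 CPM in Ctrl and 1979 CPM against 699 CPM in AD, and Gas1 at 898 CPM against 361 CPM and 862 CPM against 305 CPM. Slit2, a guidance cue, Cilp, a matrix protein gene, and Ptgfr, the receptor of prostaglandin F, were also at least 2-fold over the pooled other cells in each library. Some of these levels were as high or higher in the cells that the limits removed. In AD, cells over the sheath limit had 794 CPM of Cilp (members 187 CPM) and 249 CPM of Slit2 (members 153 CPM), and cells over the follicle limit had 797 CPM of S100a4 (members 693 CPM). Genes that stood below the others in both libraries included Plac8, Ptx3, Chrdl1, Smpd3, Anxa3 and Myoc. All 6 were most abundant in the Dpp4 cells, which the rule removes, so the rule itself sets part of this difference. Smpd3 was at 422 CPM in the Ctrl Dpp4 cells and 15.7 CPM in the Ctrl members, but at 9.31 CPM in the remaining Ctrl Pdgfra cells, those within every limit but with fewer than 2 UMIs of the rule genes. Ptx3, a soluble pattern-recognition gene, was at 18.6 CPM in the Ctrl members against 453 CPM in the others and 194 CPM in the AD members against 1173 CPM. The remaining Pdgfra cells had 169 CPM in the Ctrl library and 1033 CPM in the AD library, and the Dpp4 cells 833 CPM and 1685 CPM.

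Across 7301 genes with at least 20 CPM in the members of either library, 766 (10.5%) were at least 2-fold higher in the AD members and 1050 (14.4%) at least 2-fold lower, on log2 ratios with 1 CPM added to each level. Without the keratin-bearing members, the counts were 795 (11.3%) higher and 910 (12.9%) lower of 7056 genes. Of the 766 higher genes, 621 stayed past 2-fold without those members. Of the 1050 lower genes, 734 did, and 24 were then at least 2-fold higher. The median log2 ratio over the tested genes was -0.0017 with all members and 0.028 without the keratin-bearing ones. In bulk sums such as these, fewer cells with a transcript and less of it per cell cannot be told apart, so shares of cells are given for the main genes.

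**Figure D3:**
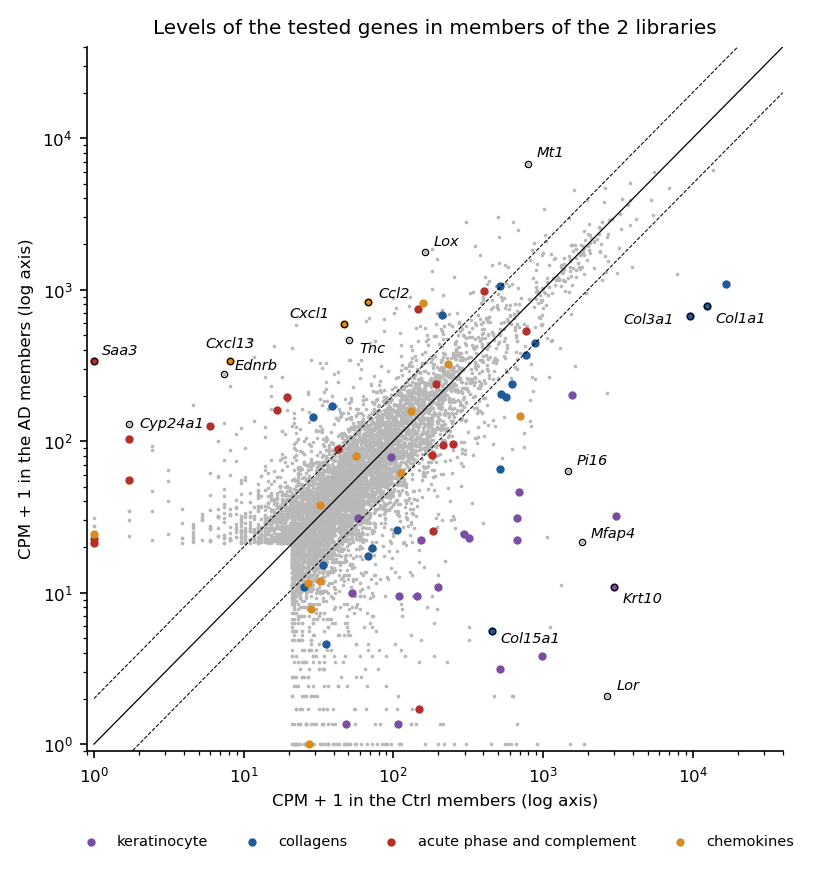
CPM with 1 added in the Ctrl members (horizontal, log axis) and the AD members (vertical, log axis) for the 7301 tested genes (gray), with keratinocyte genes, collagens, acute phase and complement genes and chemokines coloured. The solid line marks equal levels and the dashed lines 2-fold; collagens lie mostly below and acute phase genes mostly above, and the keratinocyte genes at the lower right come mainly from the 25 keratin-bearing Ctrl members.

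The 15 genes with the lowest ratio were all genes of the cornifying epidermis: Krt77, Calm4, Lor, Flg2, Flg, Crct1, Spink5, Wfdc21, Asprv1, Hrnr, Dapl1, Klk7, Fam25c, Krt10 and Krt1. Lor, a cornified envelope gene, had 3724 UMIs in 25 Ctrl members and 3 UMIs in 2 AD members, a log2 ratio of -10.33 that shrank to -3.19 without the keratin-bearing members. Wfdc21 had 785 UMIs in only 2 Ctrl members and none in AD. These ratios followed the few Ctrl cells that carried keratinocyte UMIs.

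Without those cells, the lowest ratios belonged to matrix and stromal genes: Mfap4, Col15a1, Ccn5, Spon2, Pi16, Ppp1r14a, Aldh3a1, Ndufa4l2, Ccnd1, Col1a1, Cdh4, Col1a2, Col3a1, Flt3l and Lum. Mfap4, a glycoprotein of elastic microfibrils, went from 1829 CPM in the Ctrl members to 20.6 CPM in the AD members (log2 ratio -6.41, exact binomial interval -6.87 to -6.10). Col15a1, a basement membrane collagen, went from 455 CPM to 4.61 CPM (-6.34, -7.54 to -5.84). Both were found in fewer AD cells: UMIs of Mfap4 were found in 78.3% of the Ctrl and 8.24% of the AD members, and UMIs of Col15a1 in 77.6% and 2.35%. Thinned to 2000 UMIs, the Mfap4 shares were 67.3% and 3.101%, beside 4.82% of Ctrl and 0% of AD T cells. Pi16, a marker of adventitial fibroblasts, went from 1466 CPM to 62.1 CPM. In the other Pdgfra cells the log2 ratios were -5.24 for Mfap4, -5.86 for Col15a1 and -3.68 for Pi16.

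The fibrillar collagens, the main load-bearing fibres of the dermis, were among the most abundant transcripts of the Ctrl members. Col1a1 was at 12491 CPM in the Ctrl members and 778 CPM in the AD members (log2 ratio -4.004, -4.07 to -3.94). Col1a2 was at 16594 CPM and 1092 CPM, and Col3a1 at 9617 CPM and 671 CPM. Of 20 tested collagen genes, 16 were at least 2-fold lower and 4 at least 2-fold higher, against 14.4% and 10.5% of all tested genes, with a median log2 ratio of -1.45. The 4 higher ones were Col4a1 (512 to 1059 CPM) and Col4a2 (212 to 683 CPM), the core chains of basement membrane collagen, Col12a1 (37.9 to 170 CPM), a fibril-associated collagen, and Col23a1 (27.9 to 143 CPM), a transmembrane collagen. Col4a1 fell short of 2-fold without the keratin-bearing members, at a log2 ratio of 0.74, and Col12a1 and Col23a1 turned to -0.92 and -0.70 when the follicle and sheath limits were not applied. Over 15 alternatives, Col4a1 stayed past 2-fold in 6 and Col4a2 in 12, with lowest log2 ratios of 0.24 and 0.58. These counts include the floors of 100 and 5 CPM and centring on the median, which leave a gene's ratio almost unchanged. In the other Pdgfra cells 17 of 20 collagens were lower and none was higher (log2 ratios of 0.13 for Col4a1, 0.24 for Col4a2, -1.05 for Col12a1 and -0.68 for Col23a1).

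Of 19 collagen-processing genes, 7 were lower and 2 higher, with a median of -0.51, or 10 and 2 of 20 without the keratin-bearing members. For this list and the next, the shares over all tested genes were 14.4% lower and 10.5% higher, or 12.9% and 11.3% without those members. Sparc, a collagen-binding matricellular gene, went from 7866.5 CPM to 1267 CPM. Lox, the enzyme that crosslinks collagen and elastin, went the other way, from 163 CPM to 1773.5 CPM (log2 ratio 3.44, 3.25 to 3.64), with UMIs in 47.4% of the Ctrl and 75.1% of the AD members. Thinned shares for Lox were 26.5% and 66.9%, beside 1.27% and 1.65% of T cells. Of 45 genes of elastic fibres and other matrix, 20 were lower and 9 higher, with a median of -0.85, or 25 and 8 of 44 with a median of -1.16 without the keratin-bearing members. Lum, a collagen-binding proteoglycan, went from 2671 to 206 CPM, Eln from 829 to 126 CPM and Fn1 from 746 to 112 CPM. Higher members were Thbs1 (180 to 1323 CPM) and Tnc (49.3 to 462 CPM), matricellular genes of injured tissue. The Tnc value rests on 68 AD cells, 1 of which held 34.2% of its UMIs, and its log2 ratio was 0.55 with cells thinned before the rule.

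Of 29 matrix proteases and inhibitors, 10 were higher and 6 lower, with a median of 0.40, and without the keratin-bearing members 8 were higher and 8 lower, against 10.5% and 14.4% of all tested genes. Mmp3, stromelysin 1, was at 104 CPM in the Ctrl members and 761 CPM in the AD members, where 62 cells carried it, but had a log2 ratio of -0.21 when each cell was thinned to 2000 UMIs before the rule. Adamts4, an aggrecanase, went from 100 to 702 CPM and Ctsk, a collagen-degrading cathepsin, from 506 to 2232 CPM. Contractile genes were lower in 5 of 16 and higher in 1, with a median of -0.31, and none was higher without the keratin-bearing members. Acta2, smooth muscle actin, was at 48.6 CPM in the Ctrl and 40.8 CPM in the AD members, while in the other Pdgfra cells it was at 283 CPM and 16.3 CPM. The Acta2 ratio turned on the choice of members, with a log2 ratio of -0.25 as given, -3.73 without the follicle and sheath limits and 1.16 with at least 3 UMIs of Pdgfra.

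The genes with the highest ratios included Saa3, Cyp24a1, Hp, Fmo2, Cxcl13, Klhl33, Ednrb, Chchd10, Ctla2a, Hbb-bs, Galnt15, the agouti gene a, Spp1 and Fabp4. Saa3 had no UMI in the Ctrl members and 948 UMIs (336 CPM) in AD, at least 157-fold higher against a floor of 3 UMIs in the Ctrl members. It was carried by 26 AD members, 1 of which held 26.3% of its UMIs. Hp, haptoglobin, had 1 UMI in Ctrl and 289 UMIs in AD, 49.5% of them in 1 member. Fmo2, a flavin monooxygenase, was broader, at 10.01 CPM in the Ctrl members and 467 CPM in 223 AD members. Galnt15, a glycosyltransferase, was found in 345 AD members (21.4 to 587 CPM), and the agouti gene, whose product antagonises the melanocortin receptor, in 308 AD members (20.01 to 410 CPM). These broad genes differ from Saa3 and Hp, whose sums came from a small part of the members. Much of this was shared with the other Pdgfra cells. Their log2 ratios were 6.77 for Saa3, 6.97 for Hp, 3.08 for Fmo2, 3.43 for Galnt15 and 3.08 for agouti. Ednrb (-1.76) and Hbb-bs (-0.86) were lower there. In AD the others held 228 CPM of Hp (members 103 CPM) and 1054 CPM of Galnt15.

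Acute phase and complement genes were at least 2-fold higher in 11 of 18 and lower in 5, with a median of 1.81. Without the keratin-bearing members, 8 of 17 were higher and 4 lower, with a median of 0.996. The shares over all tested genes were 10.5% higher and 14.4% lower, or 11.3% and 12.9% without those members. C3, the central complement component, went from 145 to 744 CPM in the members while the other Pdgfra cells stood at 1183 CPM in the Ctrl and 1011 CPM in the AD library. Thinned to 2000 UMIs before the rule, C3 had a log2 ratio of -0.85 in the members. Lcn2, an iron-sequestering lipocalin, had 1 UMI in Ctrl and 154 UMIs in 68 AD members.

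Genes of the NF-kB response were higher in 11 of 20 and lower in 1, with a median of 1.07, or 9 and 0 of 19 with a median of 0.94 without the keratin-bearing members. Cebpd, a transcription factor of the acute phase, went from 629 to 2817 CPM and Ptges, which encodes prostaglandin E synthase, from 50.7 to 341 CPM. Nfkbia, the inhibitor of NF-kB, was at 1954 CPM in the Ctrl members and 3913 CPM in the AD members, at the 2-fold line. Of 15 chemokine genes, 5 were higher and 5 lower, with a median of 0.29. Both lists stand beside 10.5% higher and 14.4% lower over all tested genes, or 11.3% and 12.9% without the keratin-bearing members. Ccl2, an attractant of monocytes and T cells, was at 66.5 CPM in the Ctrl members (53.7 to 81.4) and 825 CPM in the AD members (792 to 859), a log2 ratio of 3.61 (3.33 to 3.95). Over 15 alternatives of rule and processing, its log2 ratio ranged from 1.001, at the 2-fold line, to 3.625. Cxcl1 was at 45.7 CPM and 594 CPM (3.67, 3.34 to 4.08), Ccl7 at 156 CPM and 816 CPM, and Cxcl13, which draws B cells, at 7.15 CPM and 339 CPM. In both libraries the members had less of these chemokines than the other Pdgfra cells, which held 453 and 1836 CPM of Ccl2, 345 and 1680.1 CPM of Cxcl1, and 259 and 2892 CPM of Cxcl13. For Cxcl13 the rule sets part of this difference, since the Dpp4 cells that it removes held 507 and 4864 CPM. The remaining Pdgfra cells held 40.6 and 2146 CPM of Cxcl13. The share of members with a Ccl2 UMI, thinned to 2000 UMIs, was 12.2% in Ctrl and 25.3% in AD, beside 5.84% and 11.5% of T cells. For Cxcl1 the thinned shares were 3.40% and 18.9%, beside 3.30% and 4.94% of T cells, so the Ctrl members were at background. With cells thinned to 2000 UMIs before the rule, the log2 ratio of Cxcl1 was 0.84, short of 2-fold. For Ccl7 the thinned shares were 21.8% and 25.1%, beside 4.31% and 6.58% of T cells, and its log2 ratio was -0.095 when cells were thinned to 2000 UMIs before the rule. Ccl19, a lymphoid chemokine, went from 700 to 145 CPM (log2 ratio -0.84 without the follicle and sheath limits), and Ccl11, eotaxin, stood at 129 CPM and 158 CPM, a log2 ratio of 0.29 that was -0.066 without the keratin-bearing members. The share of members with a Ccl11 UMI was 41.4% in Ctrl and 18.1% in AD, and 23.1% and 9.30% after thinning, beside 1.78% and 0.412% of T cells.

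Cytokine receptor and JAK-STAT genes were higher in 9 of 30 and lower in 2, with a median of 0.66, and in 6 and 3 of 30 without the keratin-bearing members. Over all tested genes 10.5% were higher and 14.4% lower, or 11.3% and 12.9% without those members. Socs3, the feedback inhibitor that STAT3 induces, went from 195 to 1596 CPM, with UMIs in 87 Ctrl and 355 AD members. Jak2 went from 39.3 to 277 CPM (log2 ratio 2.79, 2.42 to 3.24) and Osmr, a chain of the oncostatin M receptor, from 32.2 to 173 CPM. Over 15 alternatives, the lowest log2 ratio was 1.495 for Socs3 (3.026 as given), 1.38 for Jak2 and 1.75 for Osmr (2.39 as given). In the other Pdgfra cells Jak2 had a log2 ratio of 0.87 and Osmr one of 1.64. Il4ra, the shared receptor chain of IL-4 and IL-13, was at 45.7 CPM and 112 CPM, and Stat3 at 247 CPM and 577 CPM, just short of 2-fold without the keratin-bearing members. Il4ra lost its call with cells thinned to 2000 UMIs before the rule (log2 ratio 0.70) and as a mean over members. The cytokines Il6 and Csf1 were higher, at 58.6 to 261 CPM and 192 to 594 CPM, and Csf1 lost its call with cells thinned to 2000 UMIs before the rule (log2 ratio 0.34) and as a mean over members (0.78). Interferon-inducible genes did not share this direction, with 1 of 20 higher and 5 lower and a median of -0.55, or 1 and 9 of 21 without the keratin-bearing members. The higher one was Ifitm1, an antiviral membrane protein gene, at 31.4 and 329 CPM.

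Cxcl1, Socs3 and Ednrb are shown as 1 chemokine, 1 JAK-STAT gene and 1 marker described above. The 250 bases before their start sites (RefSeq, GRCm38.p6, the build of the files; all 3 genes matched) are shown 5′ to 3′ on the strand of the gene. Capitals mark matches, on either strand, to a short form of the NF-kB site (GGG, any 3 bases, then TTCC) or to the core of a STAT site (TTC, any 3 bases, then GAA). Cxcl1 lies at chr5:90890995-90891244 on the plus strand, Socs3 at chr11:117969367-117969616 on the minus strand and Ednrb at chr14:103843702-103843951 on the minus strand.
Cxcl1: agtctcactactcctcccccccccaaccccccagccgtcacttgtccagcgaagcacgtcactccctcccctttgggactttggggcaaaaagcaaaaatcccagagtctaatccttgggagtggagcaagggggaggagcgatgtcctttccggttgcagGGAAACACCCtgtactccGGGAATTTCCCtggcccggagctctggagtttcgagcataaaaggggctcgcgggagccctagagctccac
Socs3: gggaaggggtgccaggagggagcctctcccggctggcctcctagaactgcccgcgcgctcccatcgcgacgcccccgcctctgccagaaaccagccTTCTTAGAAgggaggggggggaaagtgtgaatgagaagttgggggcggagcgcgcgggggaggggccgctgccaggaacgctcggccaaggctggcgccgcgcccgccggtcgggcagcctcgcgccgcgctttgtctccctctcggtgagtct
Ednrb: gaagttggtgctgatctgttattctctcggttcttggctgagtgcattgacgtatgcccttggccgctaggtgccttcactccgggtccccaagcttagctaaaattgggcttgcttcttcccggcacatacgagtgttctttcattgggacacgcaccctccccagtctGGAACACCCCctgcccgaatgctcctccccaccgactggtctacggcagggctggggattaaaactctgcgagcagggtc
The Cxcl1 window held 3 matches to the NF-kB form, 2 of which overlap each other, the Socs3 window held 1 stretch that matches the STAT form on both strands, and the Ednrb window held 1 match to the NF-kB form. Of 32851 such windows, 4.65% held the NF-kB form and 7.02% the STAT form. A match describes letters in the window and was not linked to any binding here.

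**Figure D4:**
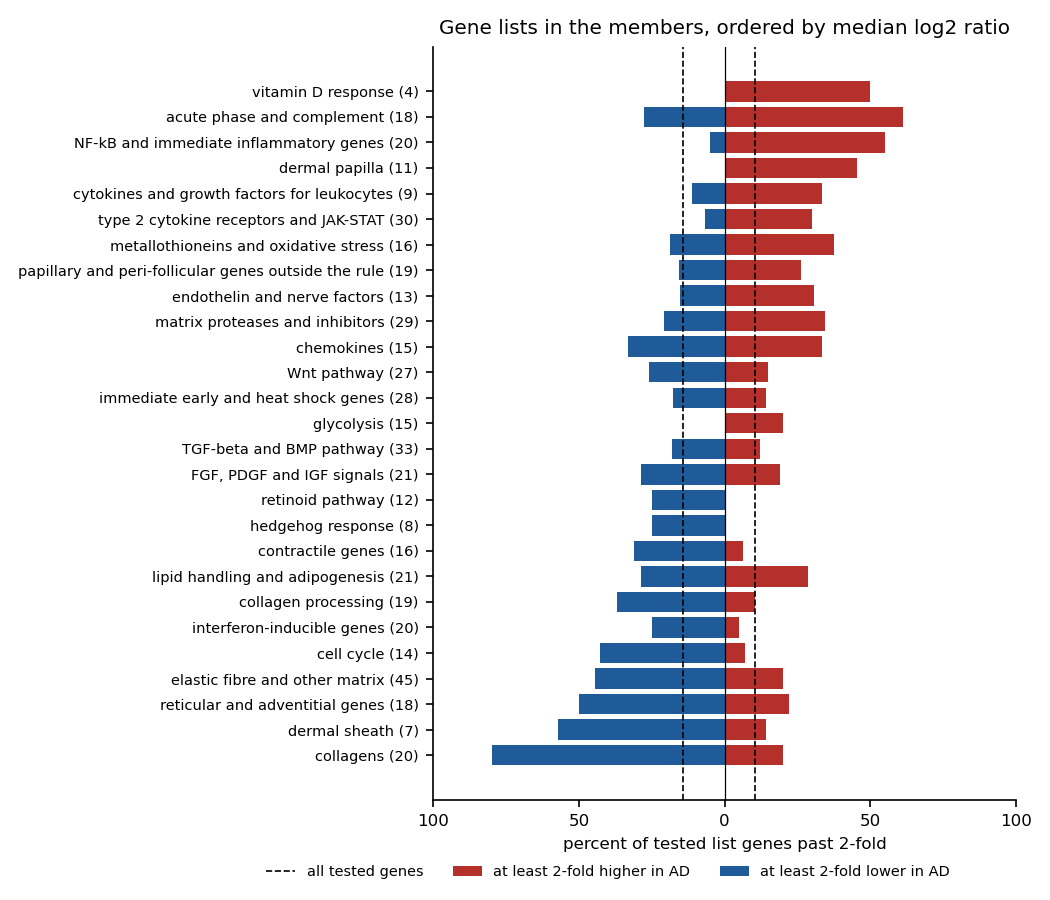
Percent of the tested genes of each list (number tested in brackets) at least 2-fold higher (red, right) or lower (blue, left) in the AD members, ordered by median log2 ratio; dashed lines give 10.5% and 14.4%, the shares over all tested genes. With all members, the NF-kB list reaches 11 of 20 higher and the collagen list 16 of 20 lower.

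The vitamin D response was carried by Cyp24a1, with 1 UMI in the Ctrl members and 364 UMIs in 57 AD members (129 CPM, log2 ratio 6.25, 5.01 to 12.80). Thinned to 2000 UMIs, 10.6% of the AD members, 5.33% of the other AD Pdgfra cells, 1.23% of AD T cells and 40.2% of AD keratinocytes had a Cyp24a1 UMI. Vdr, the receptor that MC903 binds, was at 47.9 CPM in the Ctrl and 71.3 CPM in the AD members, and at 26.2 and 25.6 CPM in the other Pdgfra cells. Of 4 tested genes of the list, 2 were higher and none lower, beside 10.5% higher and 14.4% lower over all tested genes. The second higher gene was Spp1, osteopontin, at 12.9 and 265 CPM. A single member held 77.8% of its 18 Ctrl UMIs, a single one 24.5% of its AD UMIs, and the log2 ratio was 0.11 in members chosen by Crabp1 alone (22 Ctrl and 36 AD cells). Vdr was higher too, at a log2 ratio of 1.19, once the keratin-bearing members were left out.

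Signals that position papillary fibroblasts were mixed. Of 27 Wnt pathway genes, 7 were lower and 4 higher, with a median of 0.20, or 6 and 4 without the keratin-bearing members, beside 14.4% lower and 10.5% higher over all tested genes. Rspo1, an enhancer of Wnt signalling, went from 122 to 19.5 CPM and the ligand Wnt5a from 92.2 to 34.4 CPM. Of 33 genes of the TGF-beta and BMP pathway, 6 were lower and 4 higher, or 9 and 5 of 32 without the keratin-bearing members, and Id3, a BMP target, went from 381 to 1698 CPM. Of 21 genes of FGF, PDGF and IGF signals, 6 were lower and 4 higher. Igf1 went from 535 to 76.3 CPM and Igfbp5 from 1646 to 313 CPM, while Igfbp3 went from 179 to 1858 CPM and the receptor Fgfr1 from 212 to 921 CPM, with UMIs in 403 of the 425 AD members. Igfbp5 and Fgfr1 were not past 2-fold without the follicle and sheath limits, at log2 ratios of -0.20 and 0.74. Hedgehog response genes were lower in 2 of 8, among them Gli1 (27.9 to 5.32 CPM), and retinoid genes lower in 3 of 12, with none higher in either list. Of 10 retinoid genes tested without the keratin-bearing members, 1 was lower, against 12.9% of all genes. Of 13 endothelin and nerve factor genes, 4 were higher and 2 lower, the higher ones including Gfra1, a receptor for GDNF, at 14.3 and 198 CPM.

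The identity lists are given beside the other Pdgfra cells, a pool whose make-up differed between the libraries: cells over the follicle or sheath limit, which hold much Trps1 and Ednrb, were 33.6% of it in Ctrl and 8.37% in AD. The part of this difference in the values below was not tested. The shares over all tested genes were 10.5% higher and 14.4% lower in the members, and 7.35% and 12.6% in the other Pdgfra cells. Of 19 papillary and peri-follicular genes outside the rule, 5 were higher and 3 lower in the members, with a median of 0.43, while in the other Pdgfra cells none of 18 was higher and 8 were lower, with a median of -0.66. Without the keratin-bearing members, 7 of 18 papillary genes were higher and 4 lower, with a median of 0.12. Runx1, a transcription factor, was at 60.04 CPM in the Ctrl and 299.9 CPM in the AD members. Of 11 dermal papilla genes, 5 were higher and none lower, with a median of 0.94, against 2 higher and 6 lower of 12 in the other Pdgfra cells, with a median of -1.41. Without the keratin-bearing members, 5 dermal papilla genes were higher and 1 lower, with a median of 0.54. Enpp2, autotaxin, went from 162 to 557 CPM, and Prlr, the prolactin receptor, from 23.6 to 161 CPM. Vcan, the proteoglycan of the dermal papilla, was at 284 CPM and 294 CPM in the members and at 1230.3 CPM and 185 CPM in the others. Without the follicle and sheath limits, the log2 ratios in the members were -3.56 for Vcan, 0.73 for Enpp2 and 0.82 for Runx1, so the calls of Enpp2 and Runx1 rest on those limits. Lef1, a Wnt effector, was at 28.6 and 55.7 CPM, and past 2-fold without the keratin-bearing members (log2 ratio 1.44). Reticular and adventitial genes were lower in 9 of 18 and higher in 4, beside 10 and 4 of 20 in the other Pdgfra cells, and in 10 and 4 of 18 without the keratin-bearing members. Dermal sheath genes were lower in 4 of 7 and higher in 1, beside 6 and 1 of 8.

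Both contrasts come from the same pair of libraries, and the difference between them was not tested. In the other Pdgfra cells, 7.35% of 7079 tested genes were at least 2-fold higher and 12.6% at least 2-fold lower. Genes with at least 100 CPM in the members of either library that were past 2-fold in opposite directions, with and without the keratin-bearing members, numbered 4. Ednrb had a log2 ratio of 5.22 in the members and -1.76 in the others. Spon1, an axon-guiding matrix gene, had 2.15 and -2.01, Nav2, a cytoskeletal gene, 2.94 and -1.07, and Col12a1 2.13 and -1.05. All 4 were higher in the AD members and lower in the pool of other AD Pdgfra cells, but not in every part of that pool. From Ctrl to AD, its Dpp4 cells went from 6.42 to 9.33 CPM of Ednrb, 5.10 to 7.85 of Nav2 and 43.3 to 70.5 of Col12a1. Its remaining Pdgfra cells went from 10.02 to 23.7, 10.3 to 12.3 and 45.2 to 70.6 CPM. Only Spon1 was lower in both, at 74.9 to 30.2 CPM and 21.7 to 16.8 CPM. Without the follicle and sheath limits of the rule, the log2 ratio in the members was 0.18 for Ednrb, -0.94 for Spon1, -0.069 for Nav2 and -0.92 for Col12a1, so the rises in the members rest on those limits.

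**Figure D5:**
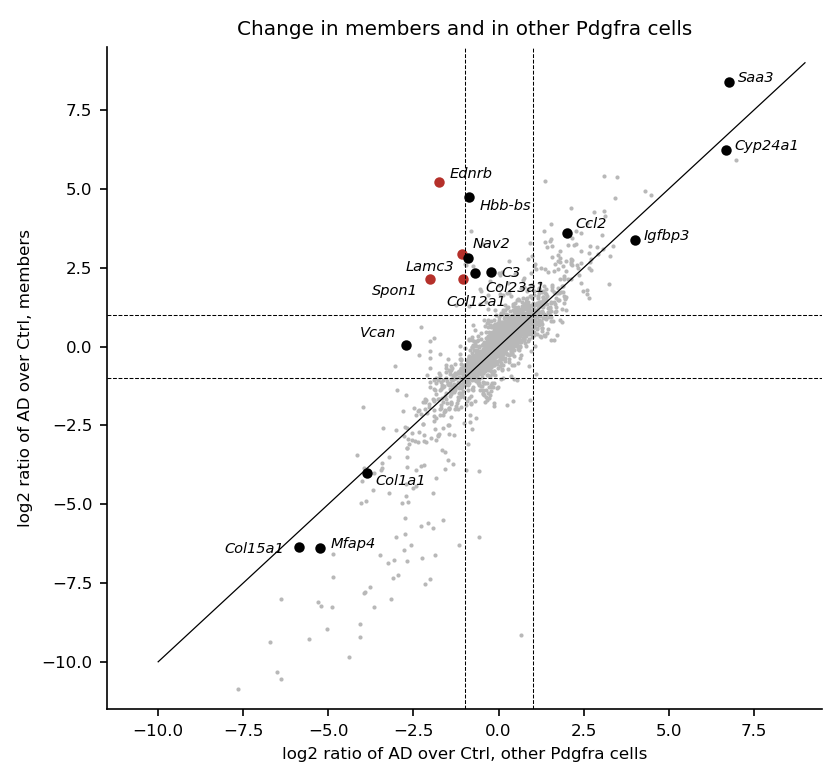
Log2 ratio of AD over Ctrl in the other Pdgfra cells (horizontal) and in the members (vertical) for genes with at least 100 CPM in the members of either library, with the solid line at equality and dashed lines at 2-fold. Ednrb, Spon1, Nav2 and Col12a1 (red) lie in the upper left, higher in the members and lower in the pooled others.

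Stress and cycle genes completed the picture of the members. The metallothioneins Mt1 and Mt2, which bind zinc, went from 796 to 6787.5 CPM and from 498 to 2997 CPM, and the zinc importer Slc39a14 from 65.0 to 620 CPM. The other Pdgfra cells had like Mt1 ratios, at log2 3.08 against 3.09 in the members. Metallothionein and oxidative stress genes were higher in 6 of 16 and lower in 3, or 5 and 2 without the keratin-bearing members. Of 14 cell cycle genes, 6 were lower and 1 higher, or 4 and 1 of 11 without the keratin-bearing members. Mki67 had 93 UMIs in 15 Ctrl members and 10 UMIs in 6 AD members, and Top2a 90 UMIs in 13 Ctrl members and 2 UMIs in AD. Myc went from 49.3 to 340 CPM. Lipid handling genes were higher in 6 of 21 and lower in 6, and in 7 and 3 of 19 without the keratin-bearing members. Lpl, lipoprotein lipase, went from 182 to 1009 CPM and Apod from 349 to 1954.5 CPM, with log2 ratios of 0.65 and 0.93 when cells were thinned before the rule. Glycolysis genes were higher in 3 of 15 with none lower, beside 10.5% higher and 14.4% lower over all tested genes. Of 28 immediate early and heat shock genes, which respond to tissue dissociation, 4 were higher and 5 lower, or 6 and 3 without the keratin-bearing members. The counts with all members were near the shares of 10.5% and 14.4% over all tested genes. Hspa1a went from 3110.6 to 1281 CPM, but its log2 ratio was -0.50 without the follicle and sheath limits.

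Markers of further cell types were low in the members. The 14 T cell genes summed to 861 CPM in Ctrl and 145 CPM in AD, of which Thy1, which fibroblasts also make, gave 820 and 136 CPM, and Cd3d, Cd3g, Cd4 and Cd8a were at 0 in Ctrl. The 18 macrophage and dendritic cell genes summed to 101 and 63.5 CPM, with Csf1r (19.3 CPM in Ctrl) and Cd68 (22.005 CPM in AD) the most abundant, the 13 granulocyte and mast cell genes to 30.7 and 19.5 CPM, and the 14 endothelial genes to 32.9 and 99.7 CPM. The 11 pericyte and smooth muscle genes summed to 307 and 269 CPM, led by Ndufa4l2 (180 CPM) in Ctrl and Rgs5 (89.8 CPM) in AD. The 13 Schwann cell and melanocyte genes summed to 565 and 559 CPM, mainly Pmp22 and Mitf, and skeletal muscle genes to 4.29 and 1.06 CPM. Adipocyte genes summed to 6.43 and 59.6 CPM and hair matrix genes to 126 and 22.7 CPM. Erythroid genes were higher in AD, at 44.3 and 794 CPM summed over 6 genes, with Alas2 and Slc4a1 at 0 in Ctrl. Hbb-bs led them, at 15.01 and 424 CPM, but 38.02% of its AD UMIs lay in 1 member, and its thinned share was 5.44% in Ctrl and 5.17% in AD, beside 8.12% and 4.53% of T cells, which is the level of background.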

How the data were processed

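Single-cell suspensions of dorsal skin were profiled by the authors with droplet-based single-cell RNA sequencing, and the reads were processed with Cell Ranger on mm10. The version is 3.1.0 in the submitters' processing notes, which also name Seurat 5.0, and 5.0.0 in the deposited matrix headers. The deposited values are raw UMI counts per gene and barcode, with no normalization. Each group is 1 library. UMIs were summed over the members of each library over 33904 genes and scaled to counts per 1000000 (CPM), and log2 ratios of AD over Ctrl were formed with 1 CPM added to each level. A gene is counted as tested, with no statistical test, at 20 CPM or more in either library, and as higher or lower from 2-fold on. Intervals are 95% exact Poisson for levels, exact binomial (Clopper-Pearson) for shares and conditional exact binomial for ratios, and cover counting error only. There are no replicates, so no p-value was computed, and the depth of the Ctrl members, 1399091 UMIs, limits low genes. Floors of a zero count were 3 UMIs summed over a library's members.

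Named genes were the 15 highest and 15 lowest ratios at 100 CPM or more, leaving out mitochondrial, ribosomal, predicted and rule genes, the 15 genes most over and 10 most under the other Pdgfra cells in both libraries, the rule genes and markers, and genes of the lists by pathway and cell type. 1 gene that the rule names is not reported here. Orders of genes without the keratin-bearing members were added after seeing the data. T cells had Cd3e and Ptprc without Pdgfra, and keratinocytes at least 10 UMIs of Krt5 and Krt14 without Pdgfra. The members and lists were chosen with earlier results of these data known. The calculations were tested on simulated counts. Python 3.11.15, numpy 2.4.6, scipy 1.17.1, pandas 2.3.3 and scanpy 1.11.5 were used. Other thresholds, rules and scalings were tried as alternatives. No doublet was removed: Scrublet marked 395 of 11399 Ctrl barcodes and 0 of 8179 AD barcodes, so it had not worked in AD and no values without doublets are given.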

Additional observations from a re-analysis of the deposited data

Results flagged for a closer look

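Among genes with at least 100 CPM in the members, 4 moved past 2-fold in opposite directions in the members and in the other Pdgfra cells, and are listed for this reason. The log2 ratio in the members minus that in the other Pdgfra cells was 6.98 for Ednrb, 4.16 for Spon1, 4.01 for Nav2 and 3.19 for Col12a1. These differences depend on the follicle and sheath limits, which move cells from the members into the other Pdgfra cells. Without the limits, the log2 ratios in the members were 0.18, -0.94, -0.069 and -0.92. The differences were not tested, since each group is 1 library and both contrasts come from the same pair of libraries.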

How the results depend on the processing

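No paired analysis was possible because each group is 1 library, and for the same reason no library could be left out. A Scrublet alternative was not run, since the caller marked no AD barcode. Of 112 named genes, 104 were past 2-fold, and 72 of these stayed past 2-fold in the same direction under all of the 15 alternatives that gave a value, of which 12 were planned and 3 were chosen after seeing the data (members by Dkk2 alone, Pdgfra at 3 UMIs or more, and each gene's top member left out); the naming of genes without keratin-bearing members was also chosen then. The count of genes at least 2-fold higher was 1230 with each cell thinned to 2000 UMIs before the rule, 312 at a floor of 100 CPM and 1221 at a floor of 5 CPM, and that of lower genes 297 and 2051 at the same floors. The lower count was 1408 with thinning. Higher and lower genes numbered 640 and 1186 without the follicle and sheath limits, and 820 and 872 with top members left out. Thinning also turned the log2 ratios of C3 (-0.85), Ccl7 (-0.095), Mmp3 (-0.21) and Wfdc21 (2.26), in 81 Ctrl and 264 AD members. Members were chosen anew from the thinned counts, so cells that lost UMIs of Dpp4 or of the follicle and sheath genes could pass. Without the follicle and sheath limits (811 Ctrl and 684 AD members), Col12a1 (-0.92), Col23a1 (-0.70), Dcn (0.62), Spon1 (-0.94) and Nav2 (-0.069) turned, and Ednrb stood at 0.18. Further calls ended without turning. With thinning these were Apod (0.93), Col23a1 (0.31), Col4a1 (0.38), Col4a2 (0.94), Csf1 (0.34), Cxcl1 (0.84), Id3 (0.91), Il4ra (0.70), Krt1 (-0.10), Lpl (0.65), Prlr (0.83), Serpina3n (0.55), Spon1 (0.28) and Tnc (0.55). Without the follicle and sheath limits they were Ccl19 (-0.84), Col4a1 (0.42), Col4a2 (0.64), Enpp2 (0.73), Fgfr1 (0.74), Hspa1a (-0.50), Igfbp5 (-0.20) and Runx1 (0.82). In members chosen by Crabp1 alone they were Col12a1 (0.94), Col4a1 (0.24), Col4a2 (0.58), Dcn (-0.82), Spon1 (0.054), Spp1 (0.11) and Stat3 (0.92). As a mean over members, Col4a1, Csf1, Il4ra, Nfkbia and Serpina3n ended, and Wnt5a did so with at least 3 UMIs of Pdgfra (-0.90). The floors of 100 and 5 CPM do not enter a gene's ratio, and centring on the median barely shifts it. These alternatives were therefore no check of a single gene. Col4a1 stayed past 2-fold in 6 of the 15 alternatives, these included. The causes were not tested.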
